A study of Glycine max with 12 samples.

Results

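Bowman-Birk inhibitors are small proteins of legume seeds, rich in cysteine, that block digestive serine proteases such as trypsin and chymotrypsin. Here 5 soybean genes of this family were measured in developing seed, out of 52872 genes in the deposited table: Glyma.16G208900 on chromosome 16, Glyma.14G117700 on chromosome 14, and Glyma.09G158700, Glyma.09G158800 and Glyma.09G158900 on chromosome 9. They were listed by identifier as sulphur-rich seed inhibitors of this family, with changes of Glyma.16G208900, Glyma.09G158700 and its chromosome 9 neighbour already known from these libraries. Counts were present for 4 of the 5, and these 4 passed the filter on low counts. The table gives identifiers alone, so the assignment to the family was not checked here against a sequence or a description. RefSeq lists genes with the symbols BBI and BBI-CII on chromosome 9, D-II on chromosome 16 and BBI-1 and BBI-2 on chromosome 18, but its table shares no identifier with the counts, and these names are therefore tied to none of the genes below.

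The inhibitors of this family carry separate reactive loops on a compact scaffold held together by disulfide bonds, which lets a single molecule bind more than one protease. Together with the Kunitz inhibitors they make up most of the trypsin inhibitor activity of soybean seed, and they store a part of the seed's sulphur as cysteine. The amount of sulphur-rich seed protein is known to depend on the supply of sulphur amino acids. The series concerns seeds made to express a deletion variant of GmCGS2, a soybean cystathionine gamma-synthase, the enzyme at the head of the methionine branch.

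All 12 libraries came from developing seed of genotype 93Y21, taken 35 days after flowering. Events e15 and e19 are transgenic for a construct with the GmUBQ promoter and are marked HOM in the sample titles, with 3 libraries each. The titles code the 6 nulls as line 33A and the events as 15A and 19A, so effects of the construct and of the null line cannot be told apart. Nothing in the labels ties replicates to separate plants. The p-values therefore set differences only against the spread of these samples, and that spread may be technical. In these bulk samples, fewer cells of a type and less RNA per cell cannot be told apart. Libraries held 19207771 to 23276877 counts, with the lowest total in replicate 3 of e19. Nulls 1 to 3 stood apart from nulls 4 to 6, with 9.59% of all tested genes called between these sets, so the main values against the nulls are also given by set. The levels of the transgene and of marker genes of the tissue were not analysed here, since identifiers are not paired with names.

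Glyma.16G208900, Glyma.14G117700 and Glyma.09G158900 stood higher in both events than in every null, and Glyma.09G158700 stood lower. Values are CPM (counts scaled to a common library size with TMM factors) and are not divided by gene length, so they compare a gene between libraries and not one gene with another. Because the genes were chosen by their family and by measured values of these libraries, the log2 changes of the events against the nulls, these contrasts are described without a p-value. A gene is said to be called where it passed a false discovery rate of 0.05 over all genes in edgeR's quasi-likelihood test.

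Glyma.16G208900 had 4256 to 4859 CPM in the 6 nulls, with a median of 4615. In e15 it had 9271, 9288 and 8255 CPM in replicates 1, 2 and 3. In e19 it had 10131, 9751 and 7400.15 CPM. The lowest event library, replicate 3 of e19, lay well above the highest null, and the groups did not overlap. The log2 change was 0.96 ± 0.10 (SE) in e15 and 0.99 ± 0.10 in e19, which is 1.95-fold and 1.99-fold. The gene held counts that were not whole in 5 of the 12 libraries, fewer than the other members with counts, which held them in all 12.

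Glyma.14G117700 showed the largest rise among the members in both events. It had 778 to 1071 CPM in the nulls, with a median of 982. In e15 it had 3404, 3176 and 3083 CPM. In e19 it had 3256, 2816 and 1973 CPM, so the libraries of e19 were further apart than those of e15 but all lay above the nulls. The log2 change was 1.77 ± 0.13 (SE) in e15 and 1.502 ± 0.13 in e19, which is 3.40-fold and 2.83-fold.

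Glyma.09G158900 behaved much like the chromosome 14 gene. It had 2823 to 3967 CPM in the nulls, with a median of 3605. In e15 it had 10502.5, 9993 and 9529 CPM. In e19 it had 10277, 8842 and 6446 CPM. No event library overlapped a null, and again replicate 3 was the lowest of e19. The log2 change was 1.52 ± 0.13 (SE) in e15 and 1.29 ± 0.13 in e19, or 2.87-fold and 2.44-fold.

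Glyma.09G158700 went the other way, although it is numbered close to Glyma.09G158900. It had 221 to 256 CPM in the nulls, with a median of 244. In e15 it had 78.4, 82.8 and 101 CPM, and in e19 it had 111, 114 and 74.8 CPM. Every event library lay below every null. The log2 change was -1.46 ± 0.12 (SE) in e15 and -1.27 ± 0.12 in e19, leaving 0.363 and 0.415 of the null level. Glyma.09G158800, numbered between them, had 0 counts in all 12 libraries, where 3 counts would have been 0.120 to 0.158 CPM, and it could not be tested.

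**Figure D1:**
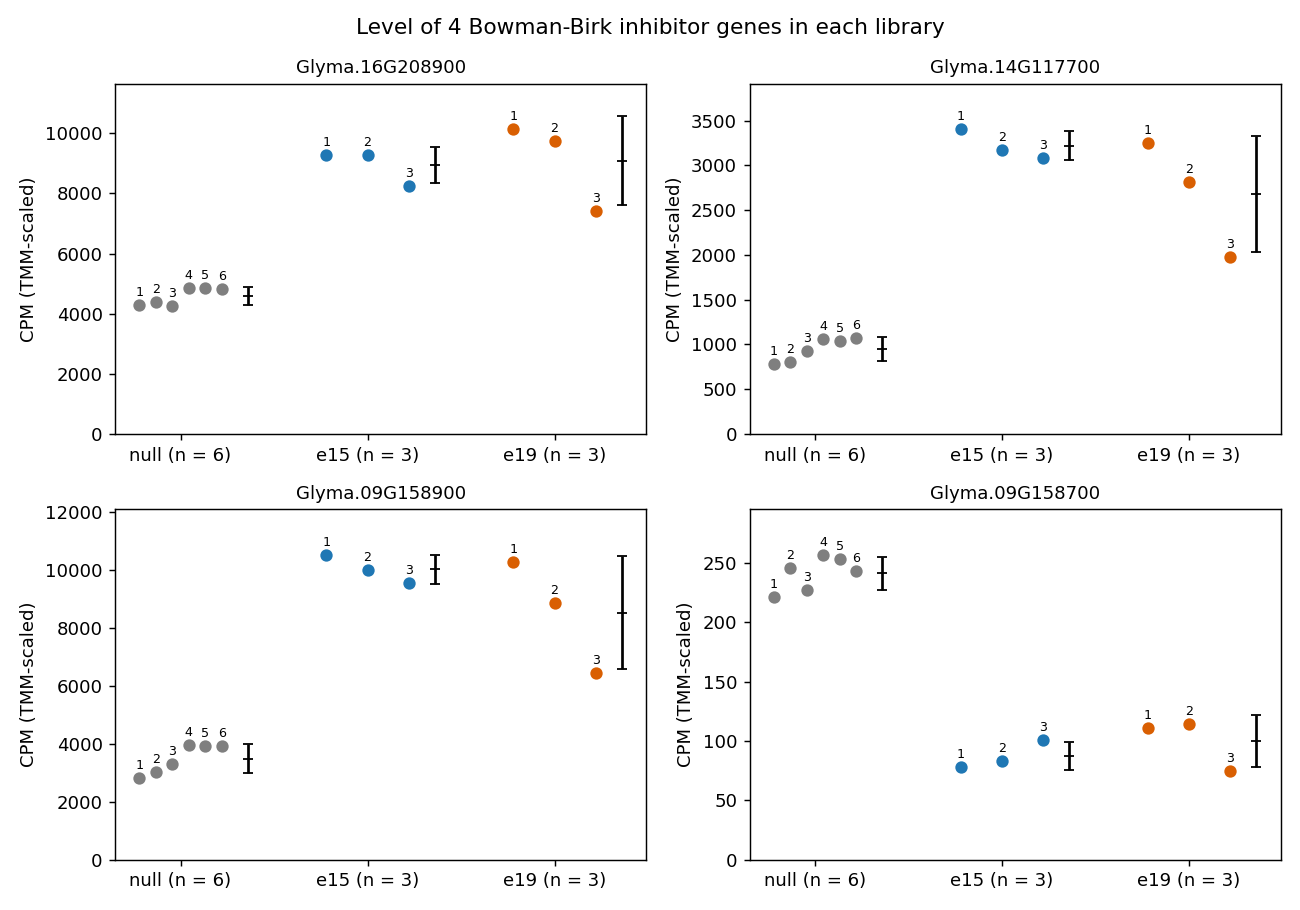
Level of the 4 members with counts in each library, in TMM-scaled CPM from 0, with the replicate number beside each point and the mean ± SD as a black bar for nulls (n = 6), e15 (n = 3) and e19 (n = 3). The event points of Glyma.16G208900, Glyma.14G117700 and Glyma.09G158900 lie above all nulls, those of Glyma.09G158700 lie below, and replicate 3 is the lowest e19 point in each panel.

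Against the nulls, 3 of the 4 tested members were called higher and 1 lower in e15, where 0.258% of all tested genes were called higher and 0.495% lower. In e19 the same members were called in the same directions, where 0.0467% of all genes were called higher and 0.028% lower. The groups did not overlap for any of the 4 in either event. Among all tested genes, those without overlap made up 2.33% (higher) and 2.83% (lower) in e15 and 1.57% and 1.58% in e19. The contrast had been used in choosing the genes, so nothing is read from these counts, nor from the medians and ranks that follow. The median log2 change of the 4, which mixes 3 rises with 1 fall, was 1.24 in e15 and 1.14 in e19. For all tested genes it was -0.0044 and -0.0076. Both comparisons use the same nulls. Among the 32115 tested genes, the rise of Glyma.14G117700 ranked 25 in e15 and 20 in e19, that of Glyma.09G158900 30 and 29, and that of Glyma.16G208900 103 and 63, while the fall of Glyma.09G158700 ranked 72 and 74 from the bottom.

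**Figure D2:**
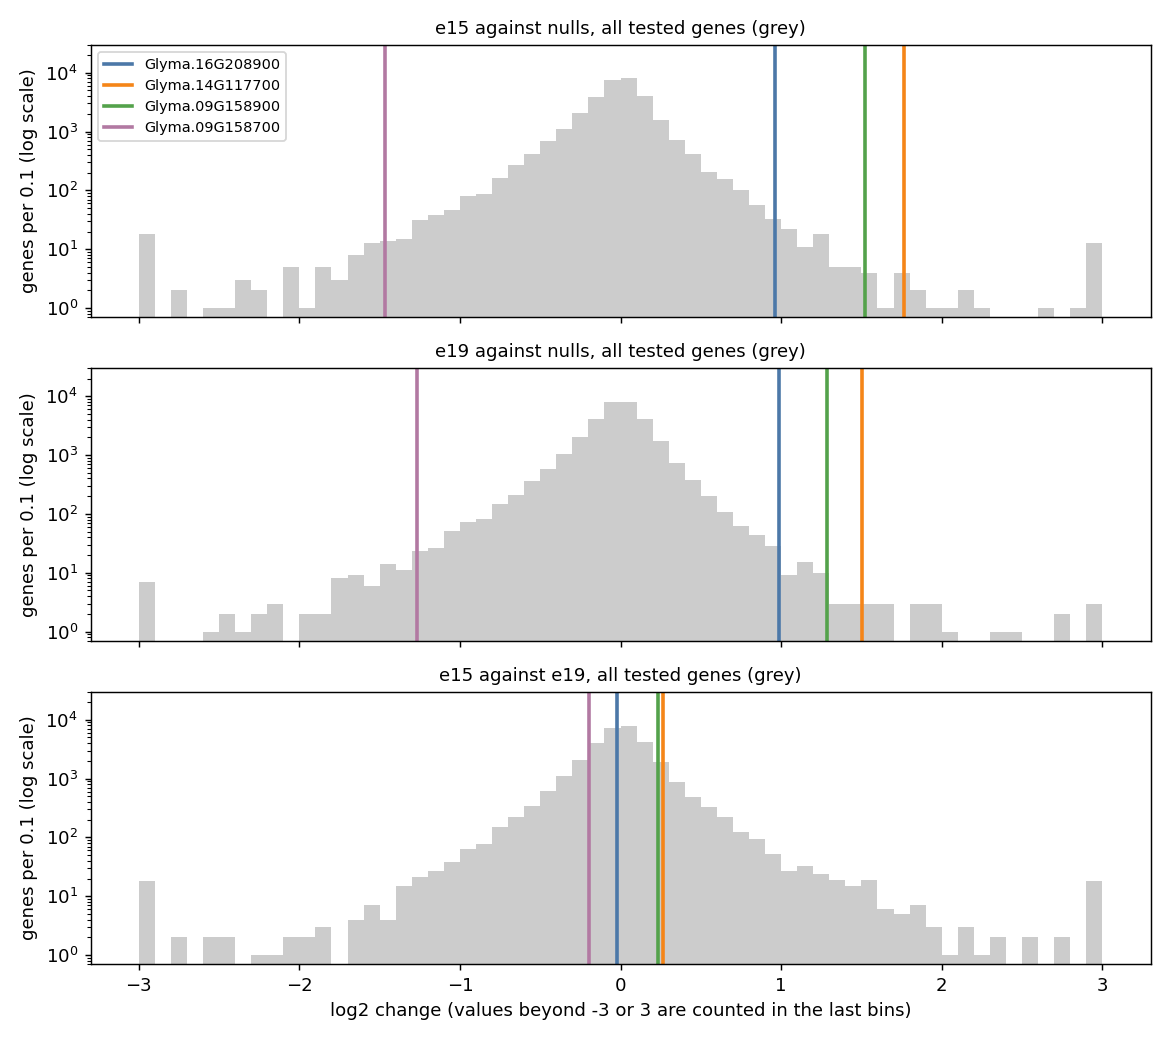
Number of tested genes by log2 change (bins of 0.1, log axis of counts) for e15 against nulls, e19 against nulls and e15 against e19, with the 4 members as coloured lines. The members lie in the tails of both contrasts with nulls, at -1.46 to 1.77 in e15 and -1.27 to 1.502 in e19. Between the events they lie less far out, at -0.19 to 0.26.

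Summed over the 5 genes, the family took a larger part of the counts in every event library than in any null. It held 0.910 to 0.991% of all counts in the nulls, 2.11 to 2.23% in e15 and 1.62 to 2.22% in e19. On the scaled level this was 9255 ± 931 CPM in the nulls (SD, 6 libraries), 22255 ± 1170 CPM in e15 and 20397 ± 4060 CPM in e19 (3 libraries each). The log2 change of the total was 1.27 ± 0.11 (SE) in e15 and 1.14 ± 0.11 in e19, which is 2.40-fold and 2.20-fold. Without replicate 3 of e19 the change in e19 was 1.29, and the scaled level of e19 was then 22649 CPM, above that of e15, while its percentage of all counts (2.08%) stayed below the 2.17% of e15. Against nulls 1 to 3 the log2 change of the total was 1.40 in e15 and 1.28 in e19, and against nulls 4 to 6 it was 1.14 and 1.02.

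The make-up of the family's reads differed between the groups as well. These shares count reads, and gene length was not divided out. Glyma.16G208900 made up 49.6 ± 2.20% of the family's counts in the nulls (SD, n = 6). It made up 40.1 ± 0.952% in e15 and 44.8 ± 2.02% in e19 (SD, 3 libraries each). Its share was lower in every event library than in every null, although its level was higher. Glyma.09G158900 made up 37.5 ± 1.87% in the nulls, 44.98 ± 0.578% in e15 and 41.6 ± 1.42% in e19. Glyma.14G117700 made up 10.2 ± 0.526%, 14.5 ± 0.337% and 13.1 ± 0.640% in the same order. Both of these shares lay above all nulls in every event library. Glyma.09G158700 made up 2.62 ± 0.175% in the nulls and 0.395 ± 0.0761% and 0.489 ± 0.0352% in e15 and e19. By null set, the shares in nulls 1 to 3 and in nulls 4 to 6 averaged 51.2% and 48.0% for Glyma.16G208900, 36.1% and 39.0% for Glyma.09G158900, 9.92% and 10.5% for Glyma.14G117700 and 2.75% and 2.49% for Glyma.09G158700. The gene that held the most reads of the family was Glyma.16G208900 in every null and in e19 replicates 2 and 3, and Glyma.09G158900 in the e15 libraries and e19 replicate 1.

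**Figure D3:**
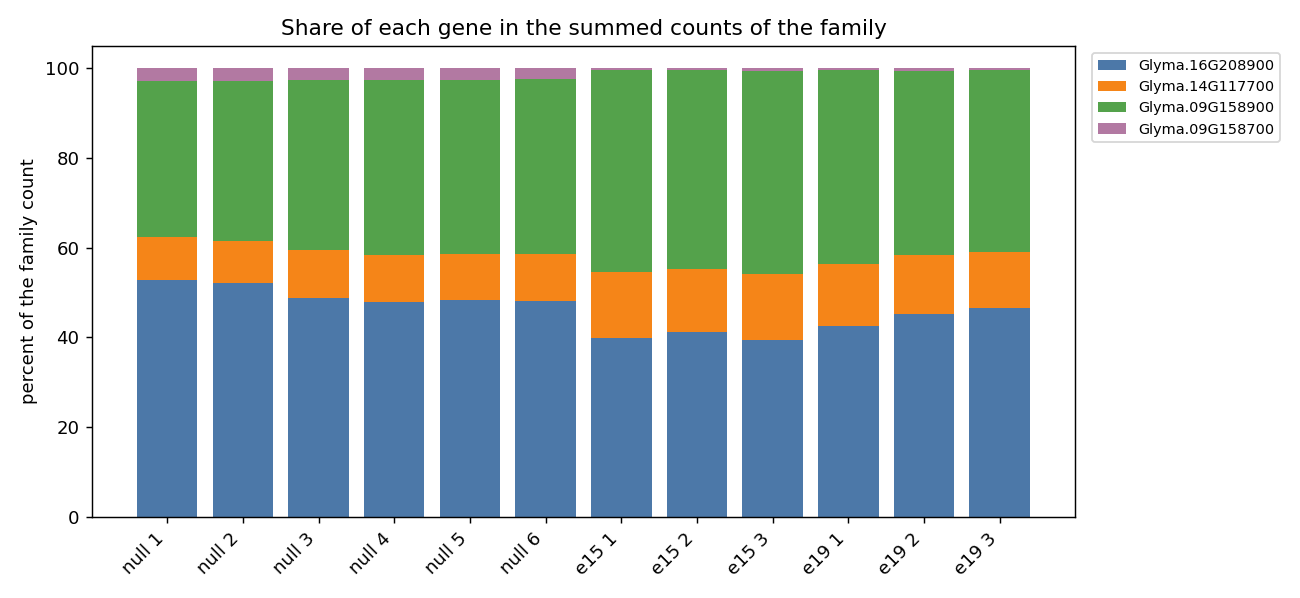
Share of each member in the summed counts of the family, in percent of reads, for each of the 12 libraries as stacked bars. The share of Glyma.16G208900 averages 49.6% in the nulls, 40.1% in e15 and 44.8% in e19, and the thin band of Glyma.09G158700 narrows from 2.62% to at most 0.530% in each event library.

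Ratios of counts between members, from which gene length cancels in a comparison of groups, show how evenly they rose. The ratio of Glyma.14G117700 to Glyma.16G208900 was 0.206 ± 0.0188 in the nulls (SD, 6 libraries), 0.361 ± 0.0167 in e15 and 0.292 ± 0.0275 in e19 (3 libraries each), and no event library overlapped a null. The ratio of Glyma.09G158900 to Glyma.14G117700 moved less, from 3.68 ± 0.0908 in the nulls to 3.11 ± 0.0338 in e15 and 3.19 ± 0.0691 in e19. It was nevertheless lower in each event library (3.09 to 3.27) than in each null (3.54 to 3.79). The ratio of Glyma.09G158900 to Glyma.09G158700, the members on chromosome 9, went from 14.4 ± 1.58 in the nulls to 116 ± 20.1 in e15 and 85.4 ± 7.51 in e19. In nulls 1 to 3 and nulls 4 to 6 these ratios averaged 0.194 and 0.218 for the first, 3.64 and 3.72 for the second and 13.2 and 15.7 for the third.

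Between the events no member was called. The log2 difference between them does not involve the levels of the nulls. Its interval and p-value do use the spread among the nulls, since all 12 libraries were fitted together with the 6 nulls as 1 group. With the nulls as 2 subgroups no member was called either, where 341 genes were called in all. In edgeR's quasi-likelihood test 0 of the 4 members passed, where 0.299% of all tested genes were called (0.109% higher and 0.19% lower in e15). At an unadjusted p under 0.05 in that test it was also 0 of the 4. The share of all genes at that threshold was not counted, so nothing is read from this count. DESeq2 called 0 of the members and 143 genes in all. For Glyma.14G117700 the log2 difference (positive where e15 was higher) was 0.26, with a 95% interval of -0.08 to 0.61 (edgeR, adjusted p = 0.845). It was 0.23 for Glyma.09G158900, with an interval of -0.09 to 0.56 (edgeR, adjusted p = 0.865). It was -0.025 for Glyma.16G208900, with an interval of -0.26 to 0.21 (edgeR, adjusted p = 0.991), and its sign flipped with library totals alone and without e15 replicate 3, e19 replicate 1 or e19 replicate 2. It was -0.19 for Glyma.09G158700, with an interval of -0.48 to 0.09 (edgeR, adjusted p = 0.878). The libraries of the events overlapped for all 4 members, while 5.59% of all tested genes stood higher in e15 without overlap and 6.56% lower. These intervals leave room for differences of up to 0.61 on the log2 scale.

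The shares of 3 members did not overlap between the events. Glyma.16G208900 held a larger share in every e19 library than in any of e15 (difference e15 minus e19 of -4.68 percentage points). Glyma.09G158900 and Glyma.14G117700 held smaller shares in every e19 library (differences of 3.36 and 1.41 points). Each of these 3 shares had p = 0.1 in an exact two-sided permutation test, the smallest that 3 against 3 allow, and 0.15 after adjustment over 9 tests. The share of Glyma.09G158700 overlapped between the events (exact p = 0.3, adjusted 0.338). Of the 5 ratios tested, that of Glyma.14G117700 to Glyma.16G208900 and those of Glyma.09G158900 to Glyma.16G208900 and to Glyma.09G158700 were higher in every e15 library than in any of e19 (exact p = 0.1 each, adjusted 0.15). Those of Glyma.09G158900 to Glyma.14G117700 and of Glyma.09G158600 to Glyma.09G158700 overlapped (exact p = 0.2 and 0.4, adjusted 0.257 and 0.4). With 3 libraries against 3, none of these tests could have passed 0.05. Shares of the same total are tied to each other, as are ratios with a gene in common, so the 9 tests are not independent.

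The chromosome 9 genes are numbered next to each other, and counts that are not whole mean that reads may have been divided among similar genes. Such counts are not particular to these genes, since 28752 of the 52872 genes in the table held them in some library. They do not show among which genes reads were divided. The 3 identifiers before Glyma.09G158700 are Glyma.09G158400, Glyma.09G158500 and Glyma.09G158600, whose function the sources used here do not give. Glyma.09G158600 had 1501 to 1897 CPM over the nulls, 991, 1218 and 1380 CPM in e15 and 1491, 1491 and 861 CPM in e19. Each event library lay below each null, but the gene was not called in either event, with log2 values of -0.53 ± 0.16 (SE) in e15 and -0.43 ± 0.16 in e19. Nor was it called against either null set, with -0.44 and -0.34 against nulls 1 to 3 and -0.61 and -0.51 against nulls 4 to 6. Its ratio to Glyma.09G158700 rose from 7.14 ± 0.290 in the nulls (SD, 6 libraries) to 13.7 ± 1.04 in e15 and 12.7 ± 1.02 in e19 (3 libraries each), so Glyma.09G158700 fell further in proportion. Glyma.09G158500 varied widely, with 0.625 to 83.7 CPM over the nulls, 0 to 9.95 CPM over e15 and 26.0 to 198 CPM in e19, and with counts that were not whole in 11 libraries. It was not called against all nulls, but was called higher in e19 against nulls 1 to 3 (log2 value of 5.62), where it had 0.625 to 3.73 CPM, and not against nulls 4 to 6 (1.44). Glyma.09G158400 stayed between 1.84 and 3.22 CPM.

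Taken as sums, in which a division of reads among the summed genes cancels, the chromosome 9 locus was also higher in the events. The 3 members there together had a log2 change of 1.44 ± 0.13 (SE) in e15 and 1.21 ± 0.13 in e19. With Glyma.09G158500 and Glyma.09G158600 added, a sum chosen after seeing the data, it was 1.05 ± 0.12 in e15 and 0.87 ± 0.12 in e19. Against nulls 4 to 6, the set with the higher levels, the members' sum changed by 1.27 and 1.04 and the wider sum by 0.90 and 0.73. In CPM, Glyma.09G158600 and Glyma.09G158700 together fell by 679 in e15 and Glyma.09G158900 gained 6520, so that the fall equalled 10.4% of the gain. In e19 the fall was 582 CPM, the gain 5034 CPM and the share 11.6%. Against nulls 1 to 3 the fall equalled 8.15% of the gain in e15 and 8.58% in e19. Against nulls 4 to 6 it equalled 13.0% and 15.1%. Reads divided between chromosomes, for example among Glyma.09G158900 and Glyma.14G117700, are not covered by these sums. The family total covers such reads among the members, but it leaves out Glyma.09G158500 and Glyma.09G158600. Whether divided reads had a part in the fall of Glyma.09G158700 was not tested.

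**Figure D4:**
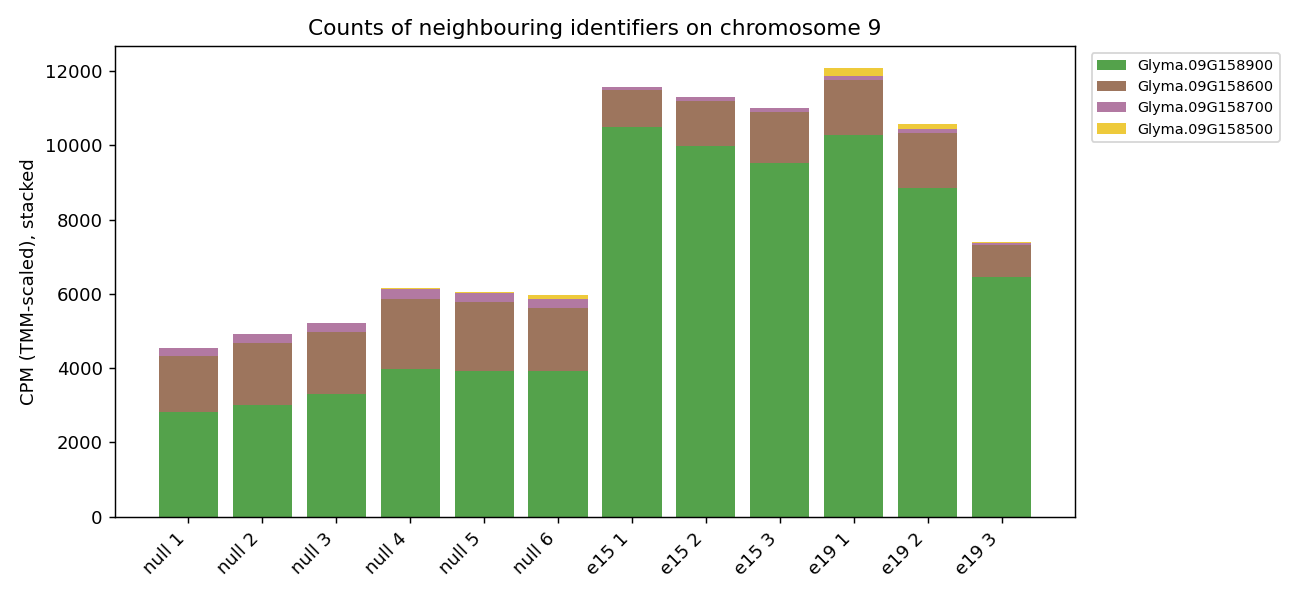
TMM-scaled CPM of Glyma.09G158900, Glyma.09G158600, Glyma.09G158700 and Glyma.09G158500 stacked for each of the 12 libraries. The height of the stack is 4547 to 6154 CPM for nulls, 11013 to 11582 CPM for e15 and 7407 to 12078 CPM for e19, and most of the rise lies in Glyma.09G158900.

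Against all 6 nulls, no identifier beside the other loci was called. Of the 6 identifiers beside Glyma.16G208900, 3 passed the filter on low counts, and 0 were called in either event (log2 changes of -0.13 to 0.20 in e15 and -0.0005 to 0.17 in e19). Beside Glyma.14G117700 it was also 3 of 6, again with 0 called, at -0.31 to -0.11 in e15 and -0.56 to 0.078 in e19. These 3 had means of 1.60 to 5.53 CPM, far fewer counts than the member between them. Against nulls 1 to 3, Glyma.14G117500 was called lower in e15 (-0.40) and Glyma.14G118100 lower in e19 (-0.93), and Glyma.14G118100 was also called lower in nulls 4 to 6 than in nulls 1 to 3 (-0.91).

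The members also stood at somewhat higher mean levels in nulls 4 to 6 than in nulls 1 to 3. Glyma.09G158900 averaged 3043 ± 236 CPM over nulls 1 to 3 and 3934 ± 29.1 CPM over the other nulls (SD, n = 3 each), a log2 difference of 0.37 ± 0.11 (SE), and was the 1 member called, a call lost whichever null was left out. Among all tested genes 4.51% were called higher in nulls 4 to 6 and 5.08% lower. With 1 null left out, 1692 to 2278 genes were called in all, against 3079 with all nulls. Glyma.14G117700 went from 837 ± 81.5 to 1056 ± 19.5 CPM, a difference of 0.34 ± 0.14. Glyma.16G208900 went from 4313 ± 77.5 to 4845 ± 15.6 CPM, a difference of 0.17 ± 0.09, and Glyma.09G158700 from 231 ± 12.6 to 251 ± 7.19 CPM, a difference of 0.12 ± 0.14. The sets did not overlap for 3 of the members, all higher in nulls 4 to 6, which held for 14.6% of all tested genes (15% were lower without overlap). The sets were found in these data, so no p-value is given. Scaling by library totals called 0 members, where 7523 genes were called in all. It gave a difference of 0.17 for Glyma.09G158900 and turned those of Glyma.16G208900 and Glyma.09G158700 to -0.030 and -0.081, while it moved the median of all genes to -0.20.

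Against nulls 4 to 6, the set with the higher levels, the log2 change in e15 was 0.88 ± 0.09 (SE) for Glyma.16G208900, 1.61 ± 0.14 for Glyma.14G117700, 1.35 ± 0.12 for Glyma.09G158900 and -1.52 ± 0.14 for Glyma.09G158700. In e19 it was 0.91 ± 0.09, 1.34 ± 0.14, 1.12 ± 0.12 and -1.33 ± 0.14 in the same order. Against nulls 1 to 3 the rises were larger, at 1.05, 1.94 and 1.72 in e15 and 1.08, 1.68 and 1.49 in e19. The fall of Glyma.09G158700 was -1.40 and -1.21 there. All 4 members were called against either set in both events, 3 higher and 1 lower. Against nulls 1 to 3, 3.67% of all genes were called higher and 4.66% lower in e15, and 3.62% and 3.61% in e19. Against nulls 4 to 6 these shares were 0.327% and 0.844% in e15 and 0.143% and 0.109% in e19.

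**Figure D5:**
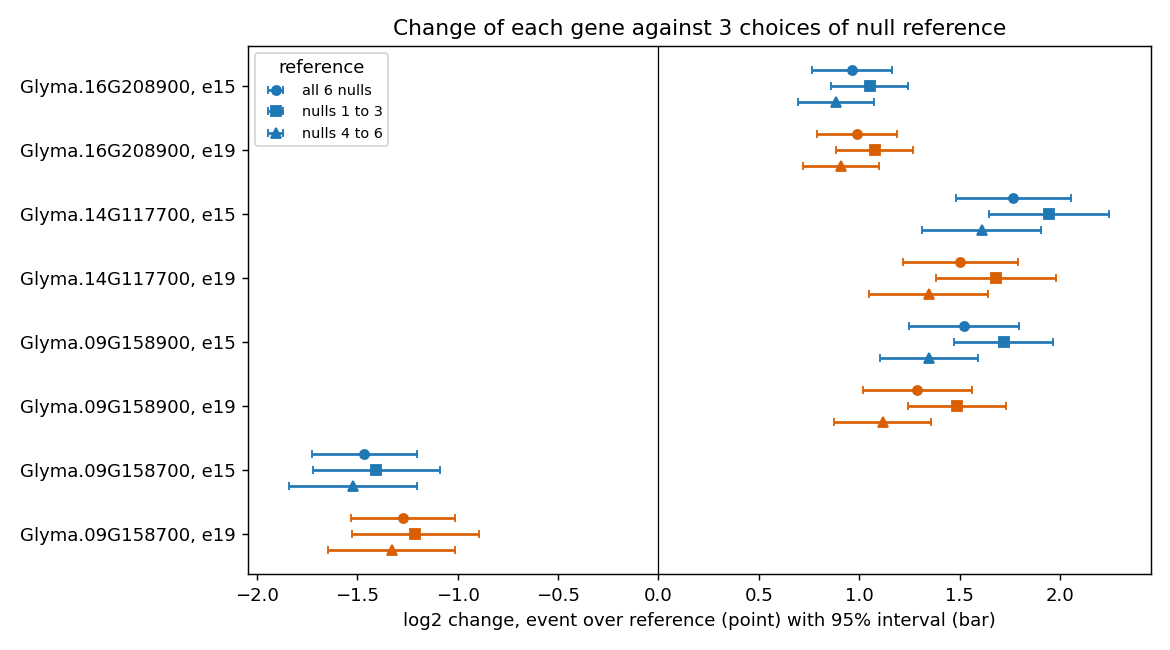
Log2 change of each member (points) with its 95% interval (bars) in e15 (blue) and e19 (orange) against all 6 nulls (circles), nulls 1 to 3 (squares) and nulls 4 to 6 (triangles). The points lie between 0.88 and 1.94 for the risen members and between -1.52 and -1.21 for Glyma.09G158700, and the order of the members is the same for each reference, with Glyma.14G117700 highest and Glyma.09G158700 lowest.

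The spread of the members within a group was smallest in nulls 4 to 6 and largest in e19. Over all 6 nulls, which pool both sets, the coefficient of variation was 6.47% for Glyma.16G208900, 13.9% for Glyma.14G117700, 14.6% for Glyma.09G158900 and 5.84% for Glyma.09G158700. Within nulls 1 to 3 it was 1.80%, 9.74%, 7.76% and 5.43% in the same order, and within nulls 4 to 6 it was 0.321%, 1.84%, 0.739% and 2.87%, where counting alone gives 0.308%, 0.659%, 0.342% and 1.35%. In e15 it was 4.87 to 13.7% and in e19 16.3 to 24.3%. Replicate 3 of e19 had the lowest level in its group of all 4 members and of Glyma.09G158600, and without it the e19 values were 1.81 to 10.6%. The highest e19 library exceeded it 1.37-fold for Glyma.16G208900 and 1.65-fold for Glyma.14G117700. Without it the log2 changes in e19 were 1.12, 1.68, 1.45 and -1.10 for Glyma.16G208900, Glyma.14G117700, Glyma.09G158900 and Glyma.09G158700.

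The genes most alike in pattern to the 3 risen members were the other risen members. Over log2 CPM of the 12 libraries, Pearson's r was 0.999 between Glyma.14G117700 and Glyma.09G158900, 0.985 between Glyma.14G117700 and Glyma.16G208900 and 0.985 between Glyma.09G158900 and Glyma.16G208900 (genes averaging 5 CPM or more were searched). The 12 libraries include the difference between nulls and events. Within the 6 nulls, which include the difference between the null sets, r was 0.987, 0.851 and 0.916 for these pairs. The pattern of Glyma.09G158700 was most like those of Glyma.13G296900 (r = 0.942) and Glyma.04G000300 (r = 0.925), whose function the sources used here do not give. Glyma.13G296900 had 12.6 to 14.97 CPM in the nulls and 5.92 to 7.34 CPM in the event libraries. Glyma.04G000300 had 25.01 to 27.3 CPM in the nulls and 17.8 to 23.5 CPM in the event libraries. Within the nulls their r with Glyma.09G158700 was 0.553 and 0.855, and Glyma.09G158700 itself correlated positively there with the risen members (0.645 to 0.847, n = 6), against -0.905 to -0.893 over all 12 libraries. These values are descriptions, since the libraries share their groups and scaling. Glyma.14G117700 and Glyma.09G158900 also held counts that were not whole in all 12 libraries, as did Glyma.13G296900 and Glyma.04G000300. Such counts do not show among which genes reads were divided, but a division between Glyma.14G117700 and Glyma.09G158900 is possible. Whether this had a part in the r of that pair was not tested.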

How the data were processed

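Polyadenylated RNA of 12 libraries was sequenced in single reads of 100 bp after stranded library preparation, per the labels' protocols. The authors deposited 1 table of estimated counts for each gene and library. These are estimates, since 28752 of 52872 genes held a value that was not whole (tolerance 0.0005) in some library. Which aligner, counting program and annotation were used, and whether strand was, is not stated in the labels or the file. The deposited table carries the tag W82a4v1. How reads that match several genes were divided is therefore unknown, and levels of similar genes are uncertain. All columns were used (0 left out).

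For the tests, values were rounded to whole counts. The filter filterByExpr of edgeR 4.0.16 (R 4.3.3) kept 32115 of the 44782 genes with any count. Libraries were scaled with TMM factors and compared by the robust quasi-likelihood test of edgeR, with a mean per group in 1 fit of all 12 libraries. Calls used a false discovery rate of 0.05 (Benjamini-Hochberg) over all tested genes. Standard errors and 95% intervals came from the fold change, the F statistic and its degrees of freedom. Levels are CPM from TMM-scaled library sizes. Nulls 1 to 3 and 4 to 6 were separate groups in a second fit. Sums of genes were fitted as extra features with the same scaling. Shares and ratios of e15 and e19 were compared with exact two-sided permutation tests (scipy 1.17.1), adjusted over 9 tests. The test was tried on simulated counts. Whether same-numbered libraries are paired was checked by the correlation of their deviations from group means. Alternatives were DESeq2 1.42.0, library totals alone, no filter, a replicate block, other null references and leaving out each library.

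The genes described and the lists were chosen with earlier results of these data known. Besides them, the rule named 3 identifiers on each side of each locus and the 2 genes most alike in pattern. Genes chosen by description could not be found, since 0 identifiers matched the RefSeq table of Glycine_max_v4.0. Sequences and lengths were not used here.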

Additional observations from a re-analysis of the deposited data

How the results depend on the processing

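All 4 tested members stayed called in both events, with their direction, under each of the 19 alternatives run. These were no filter, library totals alone, DESeq2, a replicate block, 3 treatments of the null sets and each library left out. Genes called in all ranged from 82 to 2676 in e15 and from 17 to 2322 in e19 over these settings. The members were chosen with these contrasts known, so their calls are a description and nothing is read from them. Between the events no member was called under any of 17 alternatives, where 67 to 341 genes were called in all. The total's log2 change was 1.14 to 1.40 in e15 and 1.014 to 1.29 in e19, where leaving out each library gave 1.02 to 1.29. Between the events the total's difference of 0.13 ranged from -0.026 to 0.25 with a library left out and turned without e19 replicate 3. That of Glyma.16G208900 (-0.025) ranged from -0.15 to 0.060, was 0.028 without e15 replicate 3 or e19 replicate 2, and was 0.015 with library totals. Between the null sets, 1 member was called, where 3079 genes were called in all. With library totals it was 0 members and 7523 genes, and in a fit of the nulls alone 3 members and 4707 genes. Whichever null was left out, it was 0 members and 1692 to 2278 genes. With library totals the total's difference went from 0.26 to 0.062 and that of the chromosome 9 members from 0.35 to 0.16, Glyma.16G208900 turned to -0.030 and Glyma.09G158700 to -0.081. That scaling moved the median of all genes to -0.20 between the null sets, -0.096 in e15 and -0.13 in e19. The chromosome 9 members changed by 1.62 and 1.40 against nulls 1 to 3, and by 1.05 and 0.87 with both neighbours summed. The causes were not tested.

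Same-numbered libraries did not deviate together over all tested genes (r of -0.073 to 0.095), so no pairing by number was seen. With so few libraries per group this cannot exclude a pairing, and nulls 4 to 6 have no same-numbered event library. With a replicate block the total changed by 1.40 and 1.26 and the chromosome 9 members by 1.62 in e15. Replicates 4 to 6 exist for the nulls alone, so under this block the events are compared with nulls 1 to 3 only. It is therefore close to the setting with nulls 1 to 3 as reference. With the block, all genes called rose from 242, 24 and 96 to 2350, 1945 and 292 in e15, e19 and between the events. With the nulls as 2 subgroups these counts were 888, 148 and 341, with nulls 1 to 3 as reference 2676 and 2322, and with nulls 4 to 6 376 and 81. Leaving out an e15 library gave 82 to 129 in e15. Between the null sets the 3079 calls were 7523 with library totals, 4707 in the nulls alone and 1692 at the lowest without null 4. Shares per transcript length were not run.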
